A study of Mus musculus with 6 samples.

Results

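Oxygen sensing in the wasting muscle was examined with 10 genes: the prolyl hydroxylase genes Egln1, Egln2 and Egln3, the HIF alpha subunit genes Hif1a, Epas1 and Hif3a, the HIF inhibitor genes Hif1an and Vhl, and the growth factor genes Vegfa and Vegfb. They were chosen by gene symbol, and all 10 were found among the 13363 genes of the deposited table. Every gene of that table had a value above 0 in all 6 samples. Genes without a value in some sample are thus not listed, and shares over all genes refer to the listed ones. RNA had been sequenced from 3 gastrocnemius (calf) muscles of Balb/c mice in the C26 model and from 3 of Balb/c controls. C26 is a mouse colon carcinoma line. The C26 mice had received these cells under the skin of the flank, and the controls carried no tumor. According to the methods of the study all mice were males bought at 6 weeks of age, and the labels name no genetic alteration or drug in either group. The model is therefore 1 tumor line in 1 strain and sex, and the labels do not state that each replicate is a separate mouse, so the p-values measure the spread between these 6 samples. FPKM are read numbers scaled by transcript length and by the mapped reads of the library, and can be compared between genes.

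In cells with enough oxygen, the EGLN enzymes hydroxylate prolines of the HIF alpha proteins, using oxygen and iron. The VHL protein binds the hydroxylated form and directs it to the proteasome. When oxygen or the enzymes' activity falls, HIF alpha accumulates, pairs with ARNT and switches on genes for glycolysis, blood vessel growth and mitophagy. Much of this control acts on protein, which RNA sequencing does not measure. EGLN3 and EGLN1 are themselves products of HIF target genes.

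The muscle label was checked first. All 18 markers of skeletal muscle fibers were listed, and the skeletal actin gene Acta1 had 10781 to 19513 FPKM in the C26 and 25506 to 27269 in the control muscles. C26 replicate 3 stood apart in some fiber type genes. It had 4906 FPKM of the oxygen-binding gene Mb, against 275 and 74.0 in the other C26 muscles. The controls had 578, 1569 and 887 FPKM of Mb, above those other C26 muscles. For Myh7, C26 replicate 3 had 28.9 FPKM, within the control range of 5.73 to 45.1. Over all genes, FPKM added up to 531061 to 585169 per C26 muscle and to 626992 to 688300 per control. Values were therefore rescaled before testing, and a small difference in FPKM can have another size or sign on the tested scale.

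Egln3 rose 9.85-fold in mean FPKM and Hif3a rose from a very low level, whereas the other 8 genes did not pass the test. A gene was called where limma gave an adjusted p under 0.05, after Benjamini-Hochberg correction over all 13363 genes. Of the 10 genes 2 were called higher and 0 lower in C26 muscles, and 0 of the lower values had an unadjusted p under 0.05. Over all genes 19.4% were called higher and 14.5% lower, so that 2 of 10 is near the background. At the stricter criterion of a fold change above 4, which Egln3 passed, 1.77% of all genes were called higher and 1.73% lower. The median log2 fold change of the 10 genes was 0.33 and that of all genes -0.05. With quantile normalization these medians were 0.0639 and 0.0234, and with FPKM as deposited 0.12 and -0.14. On the rescaled values, 5 of the 10 genes (Egln2, Egln3, Epas1, Hif3a and Vegfa) had groups that did not overlap, against 53.5% of all genes. On the FPKM themselves 2 of the 10, Egln3 and Hif3a, had groups apart, against 53.3% of all genes.

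**Figure D1:**
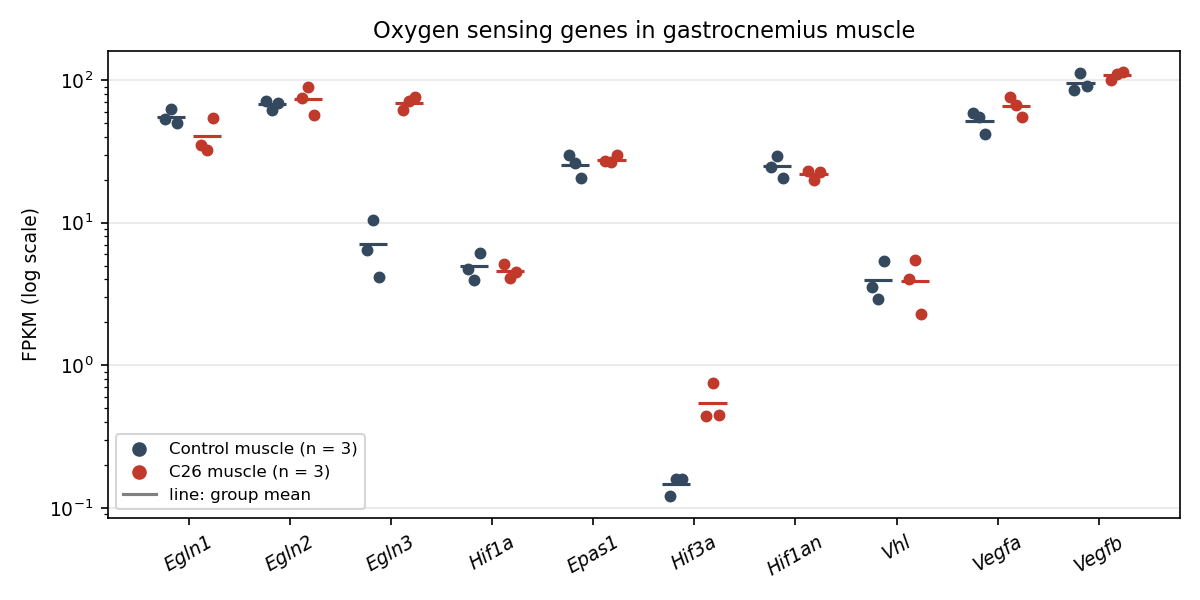
FPKM, on a log axis, of the 10 oxygen sensing genes in each control and C26 muscle; each point is 1 muscle and each line the mean of 3. Only Egln3 and Hif3a have C26 points that all lie above all control points on this scale.

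Egln3 encodes the prolyl hydroxylase also called PHD3. It lies on the minus strand of chromosome 12 at chr12:54178981-54203860 (GRCm38, as for all genes located here), and its principal transcript has 5 exons. Its level was 61.3, 70.9 and 75.4 FPKM in C26 replicates 1, 2 and 3, and 6.38, 10.5 and 4.18 FPKM in control replicates 1, 2 and 3. The lowest C26 muscle thus stood far above the highest control. The means were 69.2 ± 7.18 FPKM in C26 and 7.02 ± 3.21 in control muscles (SD, n = 3). The log2 fold change was 3.48 (SE 0.35, 95% confidence interval 2.63 to 4.33, Benjamini-Hochberg adjusted p = 0.00270 by limma), the 40th highest of 13363. In control muscles Egln3 was 7th among the 10 genes, and its range overlapped those of Hif1a and Vhl. In C26 muscles it was 3rd, and its range overlapped those of Egln2 and Vegfa.

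The 250 bases before the Egln3 start site annotated by RefSeq, chr12:54203875-54204124 on the minus strand (GRCm38.p6), are shown because Egln3 had the largest difference of the 10 genes. Capitals mark the core motif bound by HIF, searched as ACGTG and GCGTG on both strands.
Egln3 upstream: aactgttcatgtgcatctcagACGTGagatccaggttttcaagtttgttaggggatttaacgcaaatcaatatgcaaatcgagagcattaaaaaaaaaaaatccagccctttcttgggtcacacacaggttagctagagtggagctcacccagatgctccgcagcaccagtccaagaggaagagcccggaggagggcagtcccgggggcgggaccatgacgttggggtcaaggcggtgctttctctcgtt
The single match begins at position -229 from the start site. Promoter windows of 300 bases were found for 9 of the 10 genes, 11 windows in all, and 8 of them (72.7%) held the motif, against 60.1% of the windows of all listed genes and 43.8% of all windows. In cacgtg the motif is met on both strands, its copies overlapping. A match shows only that these letters are present. The mean GC content was 63.8% in the windows of these genes, 60.4% in those of all listed genes and 53.8% in all windows.

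Egln1, the gene of PHD2, the main HIF prolyl hydroxylase of most tissues, is at chr8:124908587-124949324. Its C26 muscles had 34.7, 32.1 and 54.0 FPKM and its controls 53.7, 62.2 and 50.2. C26 replicate 3 lay among the controls and the other C26 muscles below them. The log2 fold change was -0.27 (95% confidence interval -0.93 to 0.38, Benjamini-Hochberg adjusted p = 0.458 by limma).

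Egln2, the gene of PHD1, at chr7:27158658-27166802, had 74.9, 90.0 and 57.0 FPKM in C26 and 71.2, 62.1 and 69.4 in control muscles. C26 replicate 3 was the lowest of the 6 in FPKM, although the groups did not overlap once rescaled. The log2 fold change of 0.32 did not pass the test (95% confidence interval -0.08 to 0.72, Benjamini-Hochberg adjusted p = 0.173 by limma). Without C26 replicate 3 it was 0.54 and passed (Benjamini-Hochberg adjusted p = 0.0249 by limma), and with quantile normalization it was -0.07.

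The balance among the prolyl hydroxylase transcripts was compared within each muscle, where scaling between samples plays no part. Egln3 made up 35.9%, 36.7% and 40.5% of the summed FPKM of Egln1, Egln2 and Egln3 in C26 muscles and 4.86%, 7.80% and 3.38% in controls. The groups stood 32.3 percentage points apart (two-sided exact permutation test, p = 0.1, below which a test of 3 against 3 cannot go). Because the shares add up to the whole, a larger Egln3 share lowers the others: the Egln1 share was 21.96% ± 6.34 in C26 and 42.5% ± 3.13 in control muscles, and the Egln2 share 40.3% ± 8.58 and 52.1% ± 5.33 (SD, n = 3). With Egln3 left out of the sum, Egln1 made up 31.7%, 26.3% and 48.6% of Egln1 and Egln2 in C26 muscles and 43.0%, 50.05% and 41.99% in controls. These groups overlapped (two-sided exact permutation test, p = 0.3). In sum the 3 transcripts reached between 171 and 193 FPKM in C26 muscles and between 124 and 135 in controls.

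**Figure D2:**
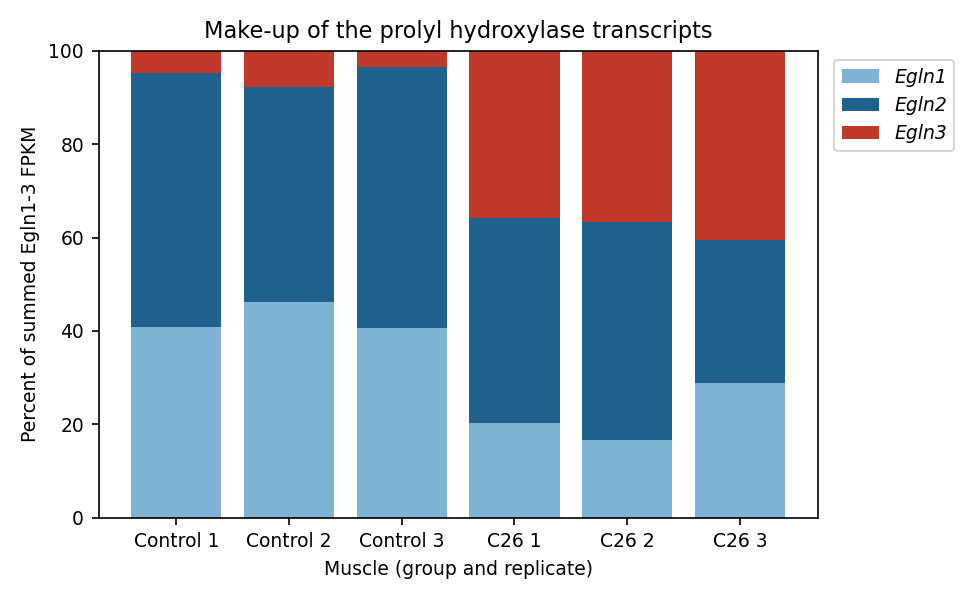
Percent of the summed FPKM of Egln1, Egln2 and Egln3 that each gene contributed, 1 bar per muscle. The Egln3 part is 3.38% to 7.80% in controls and 35.9% to 40.5% in C26 muscles, and since each bar adds up to the whole, the other parts shrink with it.

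HIF1A and EPAS1 (HIF-2 alpha) are the oxygen-regulated activators, and HIF3A has forms that can oppose them. The coding sequence around each proline codon within the motif that the EGLN enzymes recognize, a leucine, any 2 residues, then leucine, alanine and proline, is given to show which subunits carry their target sites. Sequences are from the GENCODE transcript with the longest open reading frame, numbers count codons from the start codon, and the proline codon is in capitals.
Hif1a codon 402: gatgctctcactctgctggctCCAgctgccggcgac
Hif1a codon 577: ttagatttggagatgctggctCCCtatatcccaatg
Epas1 codon 405: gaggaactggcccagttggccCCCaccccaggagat
Epas1 codon 530: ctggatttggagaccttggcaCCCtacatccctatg
Hif3a codon 489: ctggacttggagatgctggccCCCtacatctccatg
Hif1a and Epas1 each held 2 such sites and Hif3a 1.

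Epas1, at chr17:86753700-86833410, had the highest level of the HIF alpha genes, with 27.0, 26.5 and 29.6 FPKM in C26 and 29.8, 26.1 and 20.5 in control muscles. The groups overlapped in FPKM but not once rescaled, and the log2 fold change of 0.34 did not pass the test (95% confidence interval -0.14 to 0.83, Benjamini-Hochberg adjusted p = 0.222 by limma). Epas1 is strongly expressed in endothelial cells. Of 22 endothelial markers 4 were called lower and 0 higher (18.2% of the list, against 33.8% of all genes called and 14.5% called lower), with a median log2 fold change of -0.27, and with a muscle left out the number lower lay between 0 (without C26 replicate 1) and 7 (without control replicate 3). Their mean log2 level spanned 3.86 to 3.94 in C26 and 3.89 to 4.59 in control muscles, and their part in the Epas1 level was not tested. In bulk muscle, fewer cells of a type and less RNA per cell cannot be told apart.

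Hif1a, at chr12:73901375-73947530, had 5.10, 4.08 and 4.52 FPKM in C26 and 4.76, 3.98 and 6.12 in control muscles, and the groups overlapped. The log2 fold change was 0.10 (95% confidence interval -0.29 to 0.50, Benjamini-Hochberg adjusted p = 0.644 by limma). An annotated antisense gene, Gm15283, shares 330 of the 5896 exonic bases of Hif1a, and Gm49321, on the same strand, shares 148. Neither was listed, and whether counting used the strand is not given in the sources used here.

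Hif3a, at chr7:17031507-17062427, was the lowest of the 10 genes in both groups. Its level was 0.44, 0.75 and 0.45 FPKM in C26 and 0.12, 0.16 and 0.16 FPKM in control muscles, without overlap. The ratio of the mean FPKM was 3.73. The log2 fold change was 0.68 (SE 0.15, Benjamini-Hochberg adjusted p = 0.0170 by limma), and because 1 was added to each value before the log2 step it understates the change of so low a gene. With 0.1 added in its place the log2 fold change was 1.69. The call was lost without C26 replicate 2 (adjusted p = 0.0539) and without control replicate 1 (Benjamini-Hochberg adjusted p = 0.0685 by limma). Hif3a made up 1.68% ± 0.62 of the summed HIF alpha FPKM in C26 and 0.49% ± 0.13 in control muscles (SD, n = 3, exact permutation test, p = 0.1, the smallest possible). Epas1 made up 84.4% ± 1.35 and 82.9% ± 5.52.

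VHL is the substrate-binding part of the ubiquitin ligase for HIF alpha, and HIF1AN (FIH) hydroxylates an asparagine that HIF alpha needs for binding its coactivators. Vhl, at chr6:113623959-113631633, had 4.0, 5.50 and 2.27 FPKM in C26 and 3.53, 2.89 and 5.37 in control muscles. C26 muscles thus held both the highest and the lowest value. Hif1an, at chr19:44562850-44576274, had 23.2, 19.97 and 22.6 FPKM in C26 and 24.5, 29.5 and 20.6 in controls, which overlapped. Their log2 fold changes were 0.15 for Vhl (95% confidence interval -0.54 to 0.84) and 0.05 for Hif1an (-0.47 to 0.57), with adjusted p of 0.696 and 0.881 (limma with Benjamini-Hochberg adjustment).

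VEGFA is the main signal for growth of blood vessels and a HIF target, and VEGFB is a related ligand abundant in muscle and heart. Vegfa, at chr17:46016993-46032369, had 75.9, 66.7 and 54.7 FPKM in C26 and 58.8, 55.4 and 41.6 in control muscles. C26 replicate 3 fell within the control range in FPKM, and above it once rescaled. The log2 fold change of 0.55 (SE 0.21, 95% confidence interval 0.05 to 1.06) did not pass after adjustment (Benjamini-Hochberg adjusted p = 0.0849 by limma). Vegfb, at chr19:6982473-6987651, had the highest mean of the 10 genes in both groups, with 99.7, 110 and 114 FPKM in C26 and 84.9, 112 and 90.1 in controls. Its groups overlapped, and its log2 fold change was 0.40 (95% confidence interval -0.08 to 0.87, Benjamini-Hochberg adjusted p = 0.163 by limma). The log2 ratio of Vegfa to Vegfb was -0.72 ± 0.33 in C26 and -0.89 ± 0.31 in control muscles (SD, n = 3, exact permutation test, p = 0.6).

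**Figure D3:**
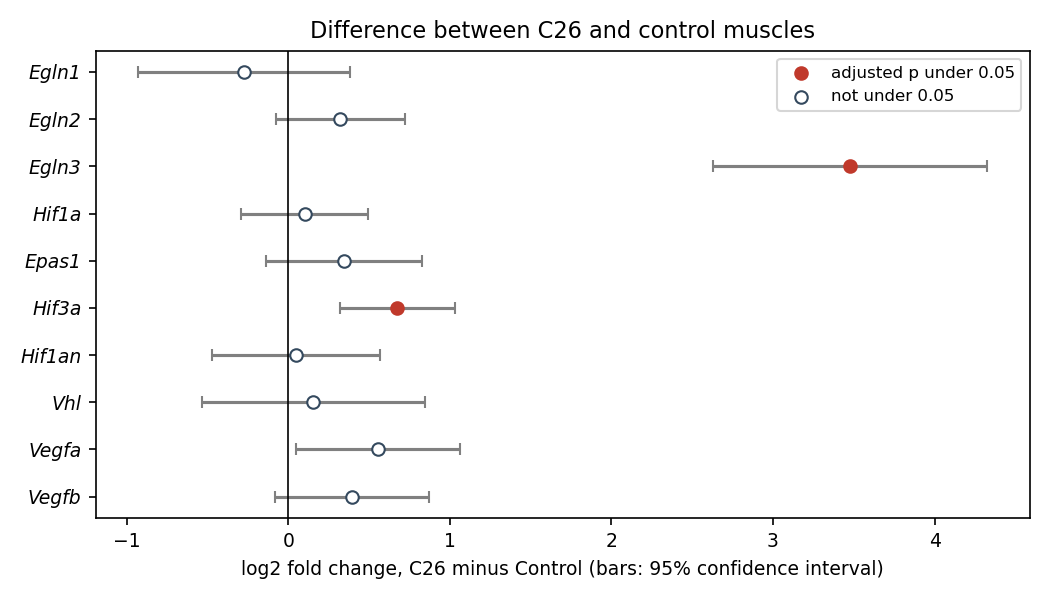
Log2 fold change between C26 and control muscles for the 10 genes, with 95% confidence intervals from limma; filled points had an adjusted p under 0.05. Egln3 stands at 3.48 and Hif3a at 0.68, and the interval of Vegfa, 0.05 to 1.06, lies above 0 although its adjusted p was 0.0849.

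Around these genes, partners and regulators of HIF moved in both directions. Of 20 listed genes, 7 were called higher and 3 lower, which is 50% of the list against 33.8% of all genes, with a median log2 fold change of 0.22. Without C26 replicate 1 the counts were 4 and 1, without control replicate 1 they were 3 and 1, without C26 replicate 2 there were 4 higher and without C26 replicate 3 there were 5 lower. With the replicate number as a block they were 4 and 1. With FPKM as deposited 4 were called higher and 6 lower, and over all genes that scaling turned 57.3% of calls being higher into 40.1%. Arnt, the gene of the partner that every active HIF needs, had 51.9, 37.4 and 21.3 FPKM in C26 and 10.3, 9.44 and 8.06 in control muscles. All C26 muscles were above all controls (log2 fold change 2.05, SE 0.31, Benjamini-Hochberg adjusted p = 0.00650 by limma). Arnt2, its relative in the nervous system, was called lower but stayed under 0.5 FPKM in every muscle, and lost the call without any 1 of C26 replicates 1 and 2 and control replicates 1 and 2, with quantile normalization and with the block. Bmal1, listed as Arntl, encodes a clock protein of the same family. It rose from 1.84 ± 0.58 to 11.97 ± 5.38 FPKM (log2 fold change 2.46, Benjamini-Hochberg adjusted p = 0.00697 by limma).

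CITED2 and CITED4 compete with HIF for the coactivators CBP and p300. Cited4 had 0.99, 0.52 and 1.13 FPKM in C26 and 19.3, 13.3 and 17.1 FPKM in control muscles, far below every control. Its log2 fold change was -3.37 (SE 0.22, Benjamini-Hochberg adjusted p = 0.000965 by limma). Cited2 fell as well, from 56.1 ± 21.0 to 16.9 ± 6.63 FPKM, and lost its call without C26 replicate 1, without control replicate 1 and with the replicate number as a block. The coactivator gene Ep300 was called higher with a log2 fold change of 0.56, but not without C26 replicate 1, C26 replicate 2 or control replicate 1. Hsp90ab1, the gene of a chaperone that stabilizes HIF alpha and many other proteins, rose from 572 ± 23.2 to 1407 ± 397 FPKM. The ubiquitin ligase genes Siah1a and Siah2, whose products target EGLN proteins, were called higher with log2 fold changes of 0.94 and 0.58. The call of Siah1a was lost without control replicate 1, and that of Siah2 without any 1 of C26 replicates 1 and 2 and control replicates 1 and 3. Ep300 and Siah2 also lost their calls with FPKM as deposited and with the replicate number as a block, and Siah2 with a pseudocount of 0.1 and with quantile normalization. None of the VHL ligase partners Elob, Eloc, Cul2 and Rbx1 was called by limma, with log2 fold changes of -0.36, -0.20, -0.31 and -0.57. With FPKM as deposited and with quantile normalization, Elob, Eloc and Rbx1 were called lower.

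**Figure D4:**
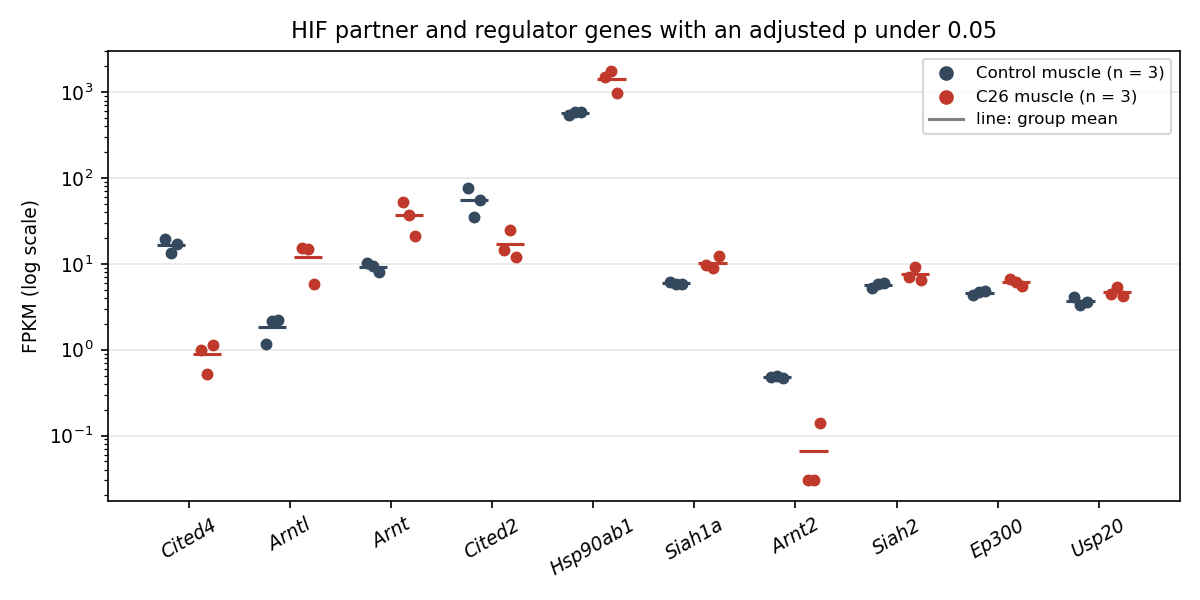
FPKM, on a log axis, of the 10 HIF partner and regulator genes with an adjusted p under 0.05, in each control and C26 muscle; lines are means of 3. Arnt and Arntl lie higher and Cited4 and Cited2 lower in every C26 muscle than in every control.

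Genes that HIF is known to induce did not move as 1 group. Of 56 listed genes (58 on the list), 12 were called higher and 10 lower, or 39.3% against 33.8% of all genes, and their median log2 fold change was -0.12. Under FPKM as deposited 12 were higher and 14 lower. Ddit4, an inhibitor of mTORC1, changed most (log2 fold change 4.62). The mitophagy receptor gene Bnip3 had 938, 684 and 469 FPKM in C26 and 142, 135 and 92.2 in control muscles (log2 fold change 2.68, SE 0.30, Benjamini-Hochberg adjusted p = 0.00352 by limma). Rora, a nuclear receptor gene, rose too, with a log2 fold change of 2.2. Tfrc, the transferrin receptor gene for iron uptake, had 1.49, 2.58 and 2.08 FPKM in C26 and 25.2, 17.0 and 15.6 in control muscles. It fell by 2.71 on the log2 scale (SE 0.24, Benjamini-Hochberg adjusted p = 0.00197 by limma). Ankrd37, often used as a marker of HIF activity, went from 4.11 ± 2.59 to 0.55 ± 0.19 FPKM (log2 fold change -1.77, Benjamini-Hochberg adjusted p = 0.0121 by limma) and lost its call without C26 replicate 1. Among 13 glycolytic enzymes on the list, singled out after their values were seen, Ldha, Pfkl, Pfkp, Tpi1 and Pgam1 were called lower and Gpi1 higher. These 6 called of 13, 5 of them lower, stand beside 33.8% of all genes called and 14.5% called lower. The list does not hold every glycolytic gene, and Pfkm and Pgam2 are not on it. Pfkl and Pfkp were low, with means of 2.33 and 1.17 FPKM in C26 and 9.01 and 4.38 in control muscles. Of these 6 genes Pfkl kept its call whichever muscle was left out, and the others lost it without C26 replicate 1 and, except Pfkp, without control replicate 1. The calls of Ldha, Tpi1 and Pgam1 were also lost with the replicate number as a block, and that of Gpi1 with quantile normalization. Without C26 replicate 1, 7 genes of the whole list were called higher and 4 lower, and without control replicate 1 they were 9 and 6.

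The VEGF family, its receptors and related vessel genes were called in both directions. Of 14 listed genes 1 was called higher and 5 lower (42.9% against 33.8% of all genes), with a median log2 fold change of -0.30. Vegfd, a lymphatic growth factor gene, had 3.08, 7.23 and 6.18 FPKM in C26 and 1.90, 0.88 and 0.70 in control muscles (log2 fold change 1.94, SE 0.36, Benjamini-Hochberg adjusted p = 0.0108 by limma). Kdr, the main signaling receptor for VEGFA, had 2.52, 2.49 and 1.94 FPKM in C26 and 6.29, 5.47 and 4.24 in controls, without overlap (log2 fold change -0.83, SE 0.19, Benjamini-Hochberg adjusted p = 0.0190 by limma). Flt1, the other VEGFA receptor gene, was not called, at 0.42. Aplnr, the apelin receptor gene, was lower with a log2 fold change of -1.72, the lymphatic ligand gene Vegfc with -1.12, the Notch ligand gene Dll4 with -0.67 and Angpt2 with -0.63. Vegfd and Aplnr kept their calls whichever muscle was left out. Kdr, Vegfc and Angpt2 lost theirs without C26 replicate 1, C26 replicate 2 or control replicate 1, Kdr also without control replicate 2, and Dll4 in every such fit but the one without C26 replicate 1. Kdr, Vegfc, Angpt2 and Dll4 also lost their calls with quantile normalization, Angpt2 and Dll4 with the replicate number as a block, and Dll4 without TMM and with an intensity trend. With quantile normalization 2 were called higher and 1 lower. The number called lower was 3 with the replicate number as a block and 2 without C26 replicate 1. It was 1 without C26 replicate 2 or control replicate 1, against 1 called higher, and 3 without control replicate 2.

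**Figure D5:**
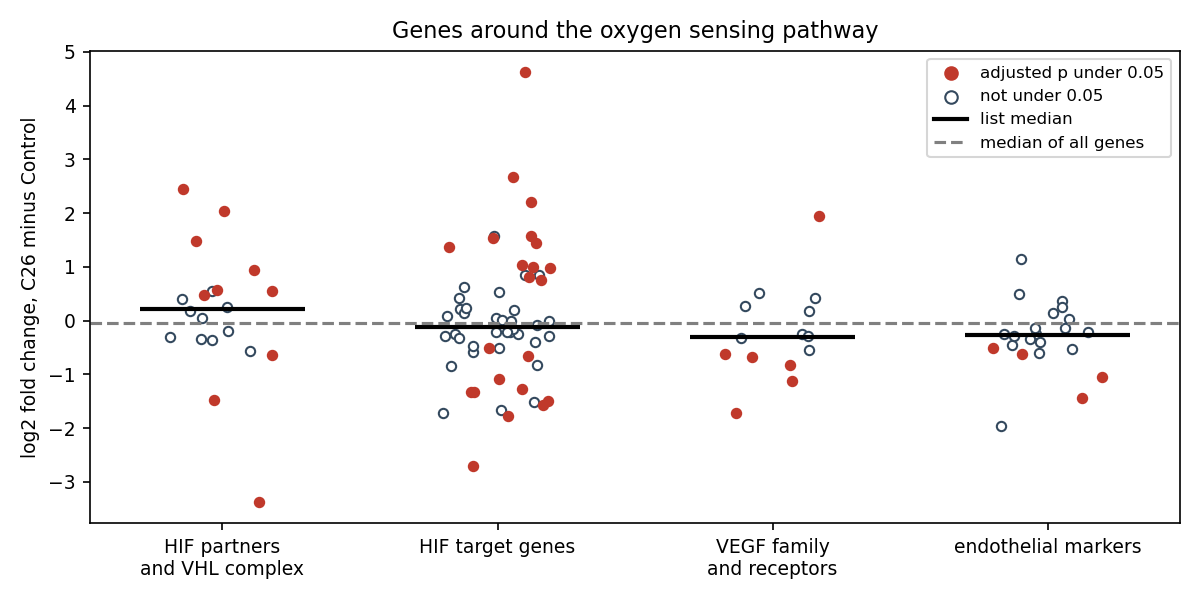
Log2 fold change of each listed gene in 4 gene lists; filled points had an adjusted p under 0.05, black lines are list medians and the dashed line is the median of all genes, -0.05. The HIF target genes spread from -2.71 to 4.62 around a median of -0.12.

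Markers of other cells were counted in the same way, and their part in the values above was not tested. Of 10 pericyte and smooth muscle markers 3 were called lower, of 10 fibroblast markers 6 and of 9 adipocyte markers 6, and none of these markers was called higher. The shares called were 30% for pericyte and smooth muscle, 60% for fibroblast and 66.7% for adipocyte markers, all of them lower, against 14.5% of all genes called lower. With FPKM as deposited 6 pericyte and smooth muscle markers were called lower, and with the replicate number as a block 0 of these and 3 fibroblast markers were. These counts moved when 1 library was left out. Without any 1 of C26 replicates 1 and 2 and control replicate 2 they were 0, 3 and 0, and without control replicate 1 they were 0, 3 and 1. Without C26 replicate 3, pericyte and smooth muscle markers called lower were 5 and adipocyte markers 3. The summed FPKM of the adipocyte markers was 417 to 515 in C26 and 597 to 4372 in control muscles, with Adipoq at 1.78 ± 1.48 and 89.1 ± 82.9 FPKM. Pericyte and smooth muscle markers summed to between 88.4 and 117 FPKM in C26 muscles and between 131 and 185 in controls, and fibroblast markers to 302 to 484 and 761 to 1147. Of 11 listed macrophage and leukocyte markers 0 were called. Those markers summed to 325 FPKM in C26 replicate 2 and 300 in control replicate 3, and to 61.3 to 131 in the other muscles. In C26 replicate 2 most of the sum was Cd68, at 247 FPKM, while Ptprc was at 0.23, Csf1r at 2.52 and C1qa at 15.0. In control replicate 3 Lyz2 had 188 FPKM and Ptprc 40.1. All 4 listed red blood cell markers, of 7 on the list, were called higher in C26 muscles, against 19.4% of all genes. Their log2 fold changes lay between 0.89 and 1.67, and Hbb-bs was low, at 0.19 to 1.14 FPKM. Hba-a1 and Hba-a2 lost their calls with quantile normalization and with the replicate number as a block, Hba-a2 also with FPKM as deposited. The number called was 1 without C26 replicate 1 or control replicate 1, and 2 without control replicate 2 or 3. Among the muscle fiber markers 1 of 18 was called higher and 4 lower, the fast-fiber calcium store gene Casq1 by the most (-4.13). In either direction 27.8% of the list was called, against 33.8% of all genes. The part called lower, 4 of 18, was above the 14.5% of all genes called lower. Without C26 replicate 1 or control replicate 1 there were 0 higher and 1 lower, and without C26 replicate 2 there were 0 higher. With FPKM as deposited 9 were lower.

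The 5 genes whose pattern was nearest to that of Egln3 were Rhou, Spsb1, Fkbp5, Ankrd33b and Tmem37. Likeness was the root mean square difference of log2 values over the 6 muscles, after the control mean of each gene was subtracted, and lay between 0.31 and 0.41. Rhou had 67.5, 63.2 and 43.0 FPKM in C26 and 4.26, 7.53 and 3.86 in control muscles. Fkbp5, a gene induced by glucocorticoids, had 68.4, 96.8 and 67.8 FPKM in C26 and 6.08, 7.07 and 6.80 in controls. All 5 had log2 fold changes between 3.13 and 3.75, and with 2 groups such likeness mostly repeats the group difference.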

How the data were processed

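Per the labels and the methods of the study, total RNA of gastrocnemius muscle was depleted of rRNA and sequenced as single-end reads of 50 bases. The authors discarded rRNA, adaptor-containing and low-quality reads, aligned the rest with bowtie2 and estimated FPKM with RSEM. Their methods name GRCm38.p5, whereas the submitters' processing notes list mm9, HISAT2 2.0.4, Bowtie2 2.2.5 and RSEM 1.2.12. The labels' extraction text also names infected THP-1 cells, whereas the source label and the muscle genes are those of gastrocnemius. The deposited FPKM are RSEM estimates rounded to 2 decimals, no counts were used here, and the depth behind each value is unknown.

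Entrez IDs were matched to symbols with the RefSeq table of GRCm38.p6 (13327 matched, 36 not). FPKM were rescaled to a sum of 1000000 (TPM), divided by unweighted TMM factors (0.903 to 1.08, with 30% of log ratios and 5% of levels trimmed), and log2-transformed after adding 1. C26 and control muscles were compared with limma 3.58.1 under R 4.3.3, with p-values adjusted by Benjamini-Hochberg over all genes. Shares and ratios used two-sided exact permutation tests in scipy 1.17.1. Figures were drawn with matplotlib 3.10.9. Positions are from GENCODE M21 (GRCm38) and promoters from RefSeq. No stretch of 50 bases was shared between transcripts of any pair of the 10 genes.

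The genes and lists were chosen with earlier results of these data known. Named are all 10 genes, up to 5 called genes with the largest changes per list, the 5 genes nearest to Egln3, and other list members given as examples after their values were seen. For marker lists only the genes a result touches are named. Alternatives left out each muscle in turn, added 0.1 in place of 1, kept genes whose mean TPM reached 1, omitted TMM, took the FPKM as they were, used quantile normalization, or fitted the replicate number as a block or a trend of the variance with level. For shares and ratios, 0.1 FPKM was added instead. The Egln1 share without Egln3 was chosen after seeing the data. The authors' other datasets were not used here.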

Additional observations from a re-analysis of the deposited data

How the results depend on the processing

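Egln3 kept its direction and its call in all 7 alternatives and in all 6 fits that left out a muscle, with log2 fold changes from 3.20 to 3.60 and from 3.14 to 3.85. Hif3a was called in the 6 alternatives that kept it (0.43 to 1.69) and in 4 of 6 leave-one-out fits. Over all 6 of these its log2 fold change lay between 0.56 and 0.76. The filter on mean TPM removed Hif3a, which left 1 of the 10 genes called higher by that construction. Leaving out a muscle gave 1 to 3 genes called higher, and 0 were called lower in any setting.

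Signs turned for genes that were not called. With FPKM as deposited the log2 fold changes were -0.0853 for Hif1a, -0.16 for Hif1an and -0.0263 for Vhl. With quantile normalization they were -0.0718 for Egln2, -0.0291 for Epas1, -0.30 for Hif1an and -0.0207 for Vegfb. With a muscle left out, Hif1an lay between -0.13 and 0.24, Vhl between -0.0698 and 0.49, Egln2 between 0.20 and 0.54, and the log2 ratio of Vegfa to Vegfb differed by -0.0025 to 0.34. The cause was not tested.

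HIF partners called higher and lower numbered 4 and 6 with FPKM as deposited, and 5 were lower with quantile normalization. They were 3 to 9 and 1 to 5 with a muscle left out. HIF targets called were then 7 to 14 higher and 4 to 13 lower, and VEGF family genes called lower 1 to 5. With quantile normalization 2 VEGF family genes were higher and 1 was lower. Of 63 other genes taken by the rule for named genes or as examples, marker genes without a value in the text included, 25 kept their direction and their side of the threshold in every fit that left out a muscle.

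The labels give both groups the numbers 1 to 3, but no source states a pairing, and deviations of same-numbered muscles correlated at -0.04, -0.08 and -0.11 across genes. With the replicate block, Egln3 and Hif3a stayed called, HIF partners called numbered 4 higher and 1 lower, and 3 VEGF family genes were lower. Over all genes the block gave 1844 higher and 1236 lower calls in place of 2590 and 1931, and FPKM as deposited gave 1678 and 2504. The depth behind each value is unknown, so its limit on precision was not measured.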
